A study of Mus musculus with 2 samples.

Results

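The 10 genes described here encode transcription factors that set or mark the lineages of mammary epithelium: Gata3, Foxa1, Esr1, Stat5a, Stat5b, Trp63, Sox9, Sox10, Tfap2a and Tfap2c. They were chosen by symbol for their known roles, and the rule for the regions used position alone. For each gene, every Etv4 and Etv5 ChIP-seq region touching the gene body or the 50 kb on either side was collected, which gave 18 of the 13636 regions of the Etv4 list (0.132%) and 8 of the 8297 regions of the Etv5 list (0.0964%). The same count was made for all 21938 protein-coding genes on nuclear chromosomes. The regions came from EpRas cells, EpH4 mouse mammary gland epithelial cells carrying oncogenic H-Ras. Both libraries were made from cells grown in 4% serum and given TGF-β3 at 1 ng/ml for 1.5 h, so the Ras transformation and the cytokine were common to both. One library used a rabbit polyclonal antibody to Etv4 and the other a mouse monoclonal antibody to Etv5. Each antibody had 1 library, so no difference between the lists could be set against a spread between replicates, and no p-value is given. Untreated cells, the parental EpH4 cells and any control library were not used here. Region lists hold no RNA levels, and the labelled cell type could not be checked against its markers.

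Etv4 and Etv5 are closely related members of the ETS family, whose DNA-binding domain recognises a GGAA core. Mammary ducts have an inner luminal layer, which includes hormone-sensing and milk-producing cells, and an outer basal layer of contractile cells. Gata3, Foxa1 and the estrogen receptor encoded by Esr1 are textbook factors of the hormone-sensing luminal lineage, and Stat5a and Stat5b act downstream of prolactin in the milk-producing one. Trp63 is the classical factor of the basal layer, whereas Sox9 and Sox10 are known from progenitor cells and Tfap2a and Tfap2c from embryonic ectoderm and mammary epithelium.

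The Etv4 list had a region at 7 of the 10 genes, compared with 53.4% of all protein-coding genes. The Etv5 list had a region at 5 of the 10, compared with 42.7%. Regions of both lists were present at 5 genes (Gata3, Stat5b, Trp63, Sox9 and Sox10), compared with 36.4%, and of neither list at 3 genes (Foxa1, Esr1 and Tfap2c), compared with 40.4%. Stat5a and Tfap2a had an Etv4 region only. These counts are near the background, and the presence of a region is no result about the group. The number of regions was uneven within the group. The highest counts were 4 Etv4 and 3 Etv5 regions at Trp63, 5 and 1 at Sox10, and 3 and 2 at Sox9. Such counts depend on the length of the window and on neighbouring genes: 4 of the 5 Etv4 regions and the Etv5 region at Sox10 lay at the starts of other genes, and no region at Trp63 lay within 50 kb of its first start. Gata3 and Stat5b had 2 Etv4 regions and 1 Etv5 region each, and Stat5a and Tfap2a had 1 Etv4 region each. Over all protein-coding genes the mean was 1.48 Etv4 and 0.840 Etv5 regions and the median 1 and 0.

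**Figure D1:**
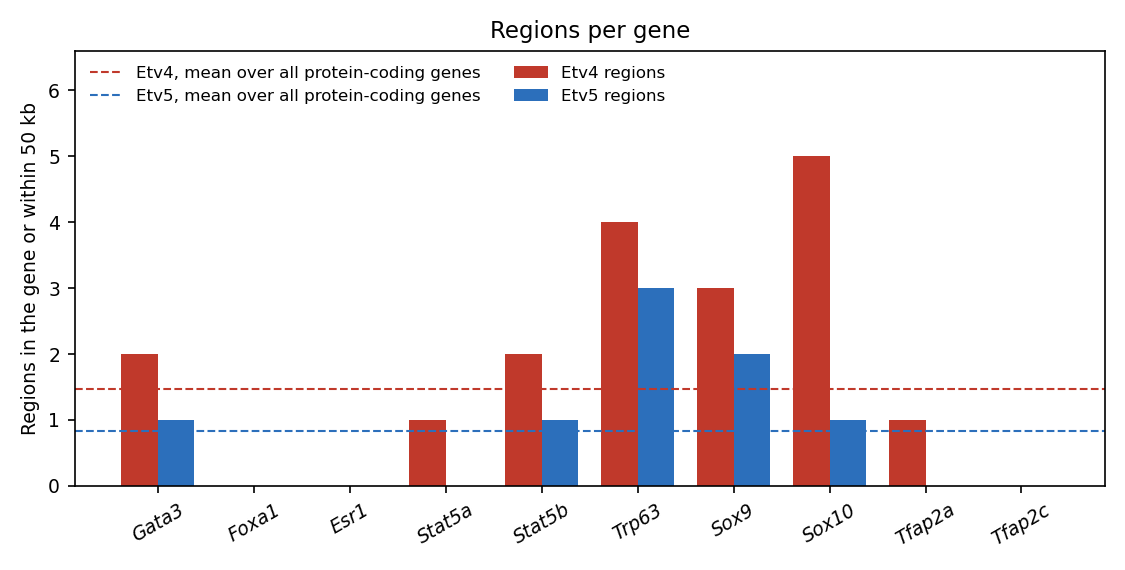
Number of Etv4 (red) and Etv5 (blue) regions in the gene body or within 50 kb of it, for each of the 10 genes. Dashed lines are the means over all protein-coding genes, 1.48 for Etv4 and 0.840 for Etv5. Gata3, Stat5b, Trp63, Sox9 and Sox10 lie above both lines, and Foxa1, Esr1 and Tfap2c have no bar.

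The windows were all free of unknown bases. Their length followed the gene, from 105.5 kb at Sox9 to 494.02 kb at Esr1. Counted per 100 kb of window, Sox10 had 4.53 Etv4 regions, Sox9 2.84, Gata3 1.50, Trp63 1.30, Stat5b 1.18, Tfap2a 0.813 and Stat5a 0.795, compared with a mean of 0.992 over all protein-coding genes. For Etv5, the values were 1.90 at Sox9, 0.973 at Trp63, 0.906 at Sox10, 0.752 at Gata3 and 0.588 at Stat5b, compared with a mean of 0.564. The remaining genes were at 0. The Etv4 density at Sox10 exceeded that of 94.1% of protein-coding genes, and the Etv5 density at Sox9 exceeded that of 90.2%. Neighbouring genes share these windows. At Sox10, 3 other protein-coding genes lay within the window and 6 lay within that of Stat5b, whereas Trp63, Sox9, Tfap2a and Tfap2c had none.

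**Figure D2:**
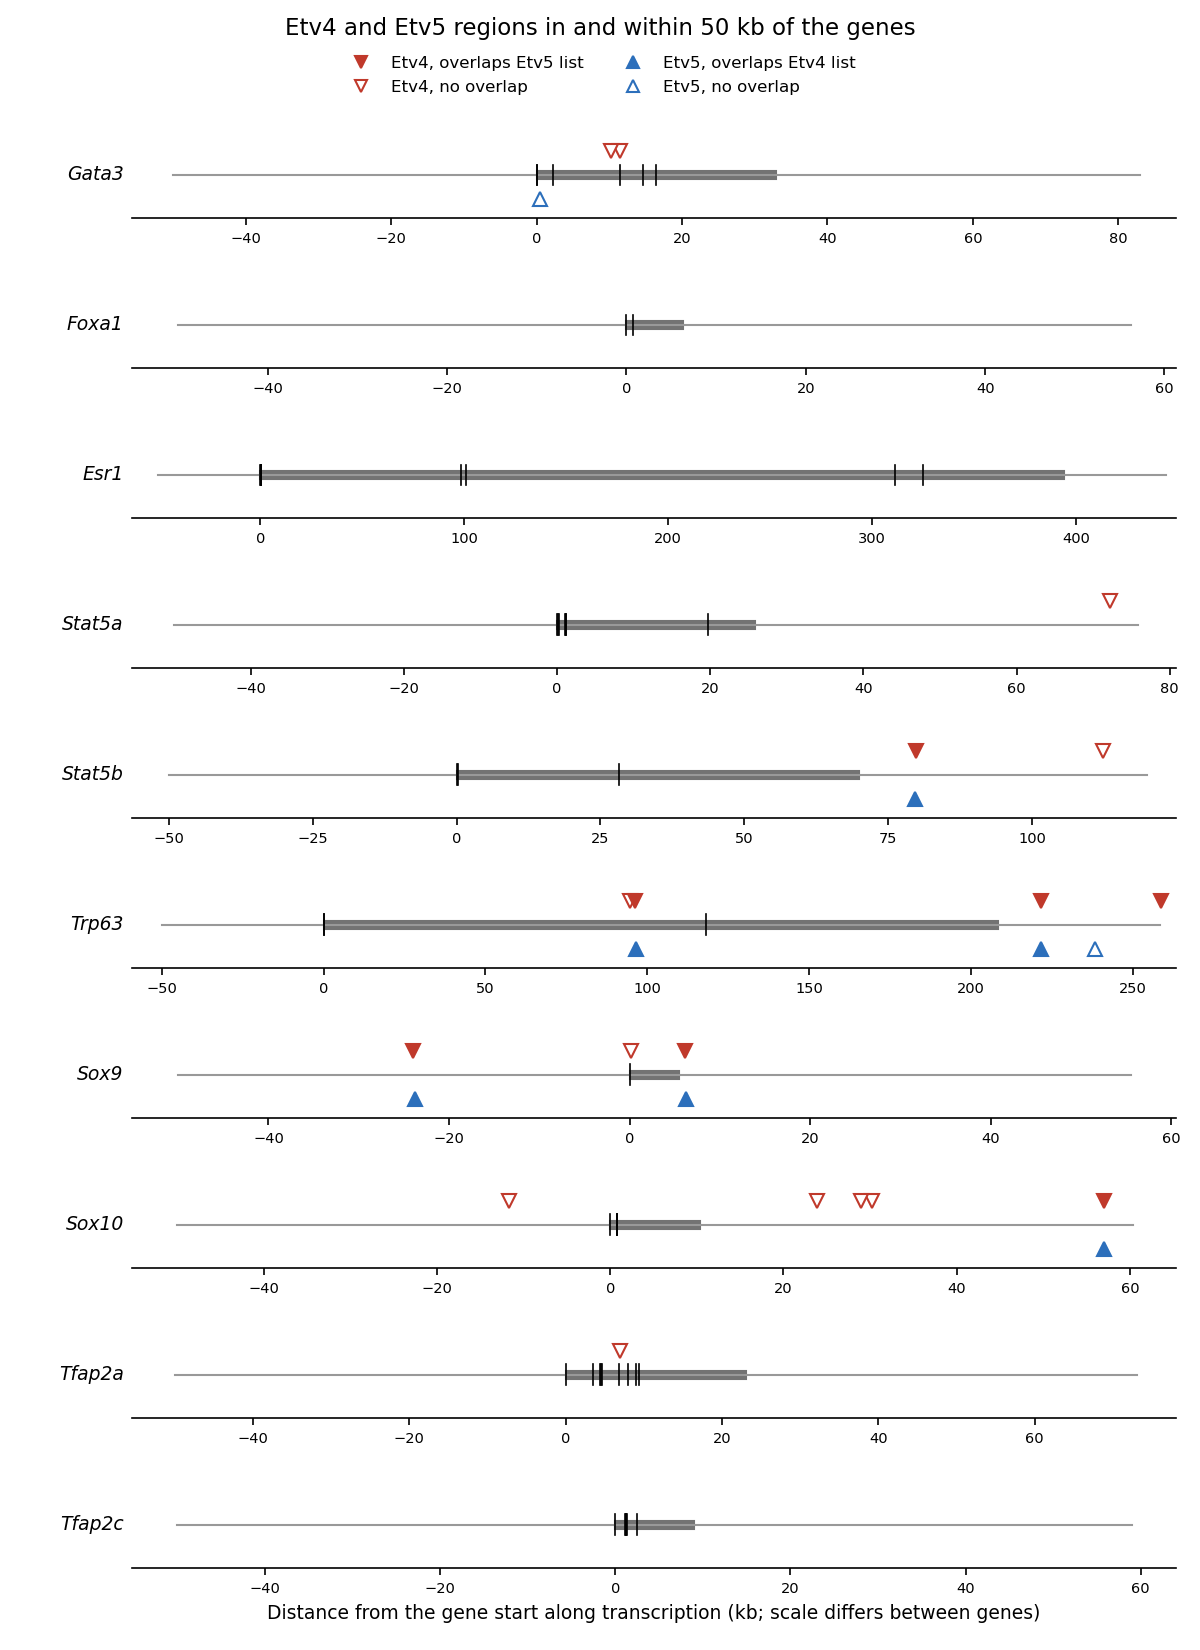
Position of each region midpoint relative to the gene start, in kb along the direction of transcription, 1 row per gene with its own scale. The grey bar is the gene, the thin line its window, vertical ticks are annotated transcript starts, red triangles above the line are Etv4 regions and blue triangles below it Etv5 regions, filled where the region overlaps the other list. Filled pairs occur at Stat5b, Trp63, Sox9 and Sox10, and none lies on the first start of a gene.

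Gata3 (ENSMUSG00000015619, minus strand, chr2:9857078-9890034 in mm10) encodes the zinc-finger factor that specifies luminal cells. Its 3 regions all lay inside the gene and did not coincide. The first Etv4 region, from 9879245 to 9880378, was 1134 bp long and had the number 1274, within the first 9.34% of the Etv4 list. Each list numbers its regions from 1, and the criterion of that order is not stated. The midpoint lay 10.2 kb into the gene and 1.21 kb upstream of an internal start at 9878600, from which 1 annotated coding transcript of Gata3 begins. The second Etv4 region, from 9878362 to 9878889 (528 bp, number 8964), spanned this internal start and overlapped annotated UTR sequence. The Etv5 region, from 9889366 to 9889708 (343 bp, number 6798), instead lay at the first start of the gene, with its midpoint 0.497 kb into Gata3 and 3 bp from the start of the neighbouring gene 9230102O04Rik. A distance of 8.99 kb separated it from the nearest Etv4 region. The lower-numbered Etv4 region is shown because it carried a site of AP-1, the Fos and Jun family, whose pattern is TGACTCA or TGAGTCA. The 300 bases around the site are given on the plus strand of mm10, and capitals mark the site at 9879753 to 9879759.
Gata3 intron, chr2:9879607-9879906: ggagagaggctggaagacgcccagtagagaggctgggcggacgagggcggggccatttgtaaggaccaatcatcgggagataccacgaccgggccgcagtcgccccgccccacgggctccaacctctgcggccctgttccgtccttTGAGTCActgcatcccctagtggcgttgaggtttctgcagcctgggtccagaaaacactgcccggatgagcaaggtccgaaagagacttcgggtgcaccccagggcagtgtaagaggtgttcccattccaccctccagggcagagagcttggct

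Stat5a (ENSMUSG00000004043, plus strand, chr11:100859351-100885169) and Stat5b (ENSMUSG00000020919, minus strand, chr11:100780731-100850724) are neighbours that point away from each other, and both encode signal transducers activated by prolactin. Neither gene had a region of either list inside it or within 2 kb of any of its starts. The single region at Stat5a, an Etv4 region from 100931327 to 100931860 (534 bp, number 7559), lay 46.2 kb past the end of the gene, in an intron of Stat3 and 7.79 kb from the Stat3 start. The nearest Etv5 region, from 100939364 to 100939961, was 54.2 kb away, just beyond the window, and 0.122 kb from the Stat3 start. At Stat5b, an Etv4 region from 100770796 to 100771115 (320 bp, number 12958) and an Etv5 region from 100770916 to 100771304 (389 bp, number 4078) overlapped by 200 bp. The pair lay 9.62 and 9.43 kb past the end of Stat5b, at the start of Ghdc (2 and 153 bp from it). The Etv5 region held 2 RUNX sites (TGTGGTT or TGTGGTC), at 100771183 to 100771189 on the minus strand and at 100771200 to 100771206 on the plus strand. The other Etv4 region, from 100738160 to 100738769 (610 bp, number 6641), was 249 bp from the start of Rab5c and 42.0 kb from Stat5b. In each of these regions the nearest protein-coding start was that of another gene.

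Foxa1 (ENSMUSG00000035451, minus strand, chr12:57540628-57546916), which encodes a forkhead factor that opens chromatin for steroid receptors, was the gene farthest from any region. The nearest Etv4 region, from 58730557 to 58731153 (number 4292), was 1183.6 kb upstream of the gene, and the nearest Etv5 region, from 58866721 to 58867323 (number 297), was 1319.8 kb upstream. Over all protein-coding genes, the median distance to the nearest region was 41.1 kb for Etv4 and 74.6 kb for Etv5. Only 3.19% of genes were farther from an Etv4 region than Foxa1, and 3.54% farther from an Etv5 region. Within 500 kb of Foxa1 there were 0 regions of either list, where the median gene had 7 Etv4 and 4 Etv5 regions.

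Esr1 (ENSMUSG00000019768, plus strand, chr10:4611593-5005614), which encodes estrogen receptor alpha, also had 0 regions, although it is the longest of the 10 genes at 394.02 kb and has 9 annotated starts. Among the 363 protein-coding genes with windows of at least 494.02 kb, 37.2% had no Etv4 region, 47.1% no Etv5 region and 30.9% neither. The nearest regions lay downstream. An Etv4 region from 5181897 to 5182251 was 176.3 kb and an Etv5 region from 5181626 to 5182113 was 176.01 kb from the gene, and they overlapped each other 3.45 and 3.66 kb from a start of Syne1. Of all genes, 24.3% were farther from an Etv4 region and 31.5% farther from an Etv5 region. Within 500 kb of Esr1 there were 6 Etv4 and 4 Etv5 regions, close to the medians of 7 and 4. The read depth behind the lists is unknown, and absence from a list does not show that a factor was absent from the site.

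**Figure D3:**
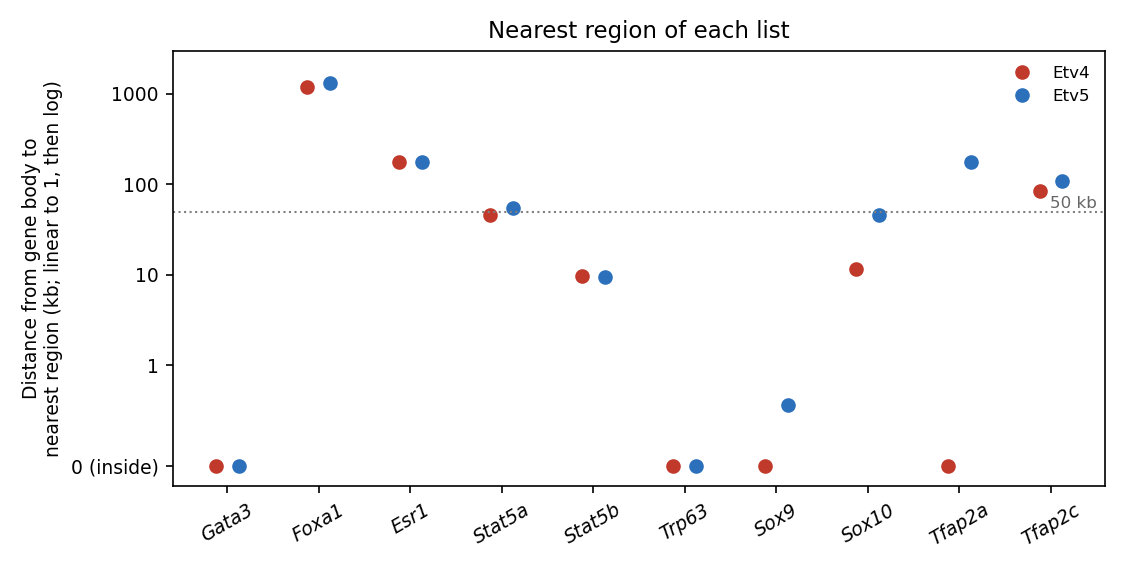
Distance in kb from each gene body to the nearest region of the Etv4 list (red) and of the Etv5 list (blue), on an axis that is linear up to 1 kb and logarithmic beyond; points at 0 have a region inside the gene, and the dotted line is 50 kb. Foxa1 stands highest, at 1183.6 kb for Etv4 and 1319.8 kb for Etv5. The next are Esr1 for Etv4, at 176.3 kb, and Tfap2a and Esr1 for Etv5, at 178.3 and 176.01 kb.

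Trp63 (ENSMUSG00000022510, plus strand, chr16:25683763-25892102, 208.3 kb) encodes p63, the factor of basal epithelial cells. The gene has a distal start, used by the long TA forms, and an internal start used by the ΔN forms that prevail in basal epithelium. In the annotation, 4 transcripts begin at the internal start at 25801916, 118.2 kb from the first. None of its 7 regions touched either start, and the 3 intragenic ones stood together in intronic sequence upstream of the internal start. An Etv4 region from 25779735 to 25780332 (598 bp, number 6718) and an Etv5 region from 25779984 to 25780384 (401 bp, number 6279) overlapped by 349 bp, 21.9 and 21.7 kb upstream of the internal start. A further Etv4 region, from 25778159 to 25778704 (546 bp, number 8130), lay 1.28 kb from this Etv5 region without touching it and held 2 RUNX sites. The other regions lay past the end of the gene, in intergenic sequence with no other protein-coding gene in the window.

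Downstream of Trp63, an Etv4 region from 25905137 to 25905857 (721 bp, number 2946) contained the whole of an Etv5 region from 25905380 to 25905688 (309 bp, number 6130), 13.0 and 13.3 kb past the gene. The outermost Etv4 region, from 25942064 to 25942760 (697 bp, number 6053), lay 49.96 kb past the gene at the border of the window and overlapped an Etv5 region outside it. It contained 2 AP-1 sites, at 25942346 to 25942352 and 25942570 to 25942576. The last Etv5 region, from 25921673 to 25922254 (582 bp, number 6445), overlapped no Etv4 region. It consisted entirely of annotated repeats, and 70.4% of the stretches of 36 bases in it had a second copy in the assembly, whereas the highest such share in the 18 Etv4 regions was 1.74%. Whether reads of other copies contributed to it was not tested. Sequence is shown from the overlapping pairs at Trp63 of which both regions were collected in the window. The intronic stretch lies within both regions. In the downstream stretch the bases before 25905380, with the AP-1 site at 25905349 to 25905355 and the first ETS core, lie in the Etv4 region only. They are on the plus strand, and capitals mark the AP-1 site and ETS cores, defined as GGAA preceded by A or C and followed by A or G, on either strand. A core of this kind was present in 81.5% of all Etv4 regions and is therefore no particular feature.
Trp63 intron, chr16:25780008-25780307: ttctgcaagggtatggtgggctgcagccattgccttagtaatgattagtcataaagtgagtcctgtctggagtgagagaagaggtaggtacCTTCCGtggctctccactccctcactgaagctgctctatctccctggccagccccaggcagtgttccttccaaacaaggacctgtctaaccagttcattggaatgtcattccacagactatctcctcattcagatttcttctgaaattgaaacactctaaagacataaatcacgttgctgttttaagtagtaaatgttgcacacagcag
Trp63 downstream, chr16:25905340-25905639: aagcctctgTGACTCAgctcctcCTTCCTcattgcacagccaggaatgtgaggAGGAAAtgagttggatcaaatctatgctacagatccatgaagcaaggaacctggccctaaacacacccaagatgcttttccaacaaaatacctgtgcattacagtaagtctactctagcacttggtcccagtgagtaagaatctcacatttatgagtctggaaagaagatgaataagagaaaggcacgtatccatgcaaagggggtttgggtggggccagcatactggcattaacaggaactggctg

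Sox9 (ENSMUSG00000000567, plus strand, chr11:112782224-112787760) encodes an HMG-box factor of progenitor and luminal cells. It was the only gene of the group with an Etv4 region across its first start. This region, from 112781993 to 112782748 (756 bp, number 5573), held the AP-1 site TGACTCA at 112782142 to 112782148, upstream of the start. No Etv5 region was closer than 5.62 kb to it. Of all protein-coding genes, 9.91% had their start within an Etv4 region and 4.35% within an Etv5 region. The other regions of Sox9 formed overlapping pairs on either side. Upstream, an Etv4 region from 112757814 to 112758572 (759 bp, number 1314) and an Etv5 region from 112758261 to 112758721 (461 bp, number 4044) had 312 bp in common, and their midpoints lay 24.0 and 23.7 kb before the start in an intron of the non-coding gene BC006965. The AP-1 site TGAGTCA at 112758272 to 112758278 was in both. Downstream, an Etv4 region from 112787847 to 112788858 (1012 bp, number 2360) contained the whole of an Etv5 region from 112788363 to 112788673 (311 bp, number 6124), only 0.087 and 0.603 kb past the end of the gene. No other protein-coding gene lay in the window, so Sox9 had the nearest protein-coding start for all 5 regions. The upstream pair, the part of the start region that precedes transcription and the downstream pair are given on the plus strand, with AP-1 sites and ETS cores in capitals. No ETS core was found in the printed stretch before the start.
Sox9 upstream, chr11:112758261-112758560: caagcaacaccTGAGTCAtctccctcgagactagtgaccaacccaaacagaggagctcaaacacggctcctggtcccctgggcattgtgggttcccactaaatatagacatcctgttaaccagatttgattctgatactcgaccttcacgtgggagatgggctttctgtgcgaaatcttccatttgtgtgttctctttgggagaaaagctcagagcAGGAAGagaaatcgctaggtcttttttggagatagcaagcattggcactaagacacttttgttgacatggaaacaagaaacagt
Sox9 start, chr11:112781993-112782223: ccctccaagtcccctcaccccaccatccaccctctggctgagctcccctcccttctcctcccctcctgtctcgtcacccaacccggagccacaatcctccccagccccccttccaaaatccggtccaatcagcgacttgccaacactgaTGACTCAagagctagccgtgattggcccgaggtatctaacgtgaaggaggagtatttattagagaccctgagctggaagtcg
Sox9 downstream, chr11:112788368-112788667: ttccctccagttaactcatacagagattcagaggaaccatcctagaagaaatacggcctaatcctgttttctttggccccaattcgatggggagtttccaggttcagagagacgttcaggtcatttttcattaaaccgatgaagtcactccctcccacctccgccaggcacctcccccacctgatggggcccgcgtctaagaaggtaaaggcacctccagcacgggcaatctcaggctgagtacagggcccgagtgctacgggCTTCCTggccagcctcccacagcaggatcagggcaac

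Sox10 (ENSMUSG00000033006, minus strand, chr15:79154908-79165240), an HMG-box factor of neural crest and mammary progenitor cells, had the highest Etv4 count of the group, but 4 of its 5 Etv4 regions lay at the starts of neighbouring genes. An Etv4 region from 79107817 to 79108630 (814 bp, number 2432) and the only Etv5 region, from 79107911 to 79108643 (733 bp, number 4679), overlapped by 720 bp at Micall1, 675 and 621 bp from its start and 46.3 kb past the end of Sox10. Etv4 regions from 79134880 to 79135207 (328 bp, number 12814) and from 79135559 to 79137029 (1471 bp, number 2814) lay 127 and 419 bp from the start of 1700088E04Rik. The latter was the longest region at any of the 10 genes. The Etv4 region from 79141215 to 79141600 (386 bp, number 10428), 41 bp from the start of Polr2f, held the only ETS pattern of the group, CCGGAAGT at 79141308 to 79141315. The remaining Etv4 region, from 79176722 to 79177131 (410 bp, number 12052), was the only one for which Sox10 had the nearest protein-coding start. It lay 11.7 kb upstream, in an intron of the non-coding gene Gm10863, and contained 2 AP-1 sites. These sequences are shown because the former carries the ETS pattern and the latter is the region assigned to Sox10 itself. They are on the plus strand, with the ETS pattern and AP-1 sites in capitals.
Polr2f start, chr15:79141297-79141326: gccgctgcttcCCGGAAGTaactgcgcctg
Sox10 upstream, chr15:79176832-79177131: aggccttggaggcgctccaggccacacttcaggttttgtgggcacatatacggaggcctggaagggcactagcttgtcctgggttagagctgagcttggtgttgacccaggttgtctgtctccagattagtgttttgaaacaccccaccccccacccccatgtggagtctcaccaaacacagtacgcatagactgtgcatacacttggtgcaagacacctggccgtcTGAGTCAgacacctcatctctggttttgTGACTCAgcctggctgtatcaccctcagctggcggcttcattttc

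The surroundings of Sox10 were dense in regions on a larger scale as well. Within 500 kb there were 43 Etv4 and 29 Etv5 regions, more than at 99.3 and 99.5% of protein-coding genes. Sox9 had 13 Etv4 and 15 Etv5 regions within 500 kb, and its Etv5 count exceeded that of 93.4% of genes, while its Etv4 count exceeded that of 71.5%. Trp63 had 19 and 9, Stat5a 27 and 14, and Stat5b 34 and 17. Gata3, in contrast, had 4 and 2, of which 2 and 1 lay inside the gene.

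Tfap2a and Tfap2c encode AP-2α and AP-2γ, of which the latter is known from luminal cells. Tfap2a (ENSMUSG00000021359, minus strand, chr13:40715302-40738376) had 1 Etv4 region, from 40731204 to 40731711 (508 bp, number 9962). It lay 6.92 kb into the gene and spanned an internal start at 40731607, that of a non-coding transcript and 1 of 9 annotated starts. The nearest Etv5 region, from 40916685 to 40917282, was 178.3 kb upstream, at 0.618 kb from a start of Gcnt2. Tfap2c (ENSMUSG00000028640, plus strand, chr2:172549593-172558622) had 0 regions. The nearest Etv4 region, from 172643577 to 172644734 (number 4660), lay 84.96 kb downstream, and the nearest Etv5 region, from 172440099 to 172440696, lay 108.9 kb upstream and 0.159 kb from the start of Rtf2. Of all genes, 37.6 and 41.9% were farther from a region than Tfap2c, so the distances of Tfap2c were not as uncommon as those of Foxa1.

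Regions at the first starts of the 10 genes were near the background of all protein-coding genes. Of their 50 annotated transcript starts, 3 lay inside an Etv4 region (1 each of Gata3, Sox9 and Tfap2a) and 0 inside an Etv5 region. The share over all transcript starts is not given here, so these counts have no background. Of the 10 first starts, 1 was spanned in the Etv4 list (Sox9) and 0 in the Etv5 list, compared with 9.91 and 4.35% of all protein-coding genes. A region had at least 1 base within 2 kb of the first start of 1 gene in each list, Sox9 for Etv4 and Gata3 for Etv5. The same held for 15.8 and 8.95% of all protein-coding genes. Most near-start regions in the windows lay at starts of neighbouring genes. Midpoints within 2 kb of the start of any transcript made up 10 of 18 Etv4 regions (55.6%, exact binomial 95% interval 30.8 to 78.5%), of which 4 were at a start of the 10 genes themselves, and 3 of 8 Etv5 regions (37.5%, interval 8.52 to 75.5%), of which 1 was. The whole lists had 36.5 and 33.0%, inside both intervals. Intervals cover counting error only and treat regions as independent. Of the others, introns held 5 Etv4 and 2 Etv5 regions (27.8 and 25%, compared with 29.7 and 30.9% of the lists). Intergenic sequence held 3 of each list (16.7 and 37.5%, compared with 31.2 and 34.0%). Exons held 0, where 0 of 18 and 0 of 8 allow shares of up to 16.7 and 37.5% and the lists had 2.60 and 2.06%. The nearest protein-coding start was that of the gene itself for 9 of the 18 Etv4 and 3 of the 8 Etv5 regions.

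The lists coincided at these genes about as often as elsewhere. Of the 18 Etv4 regions, 7 shared 1 bp or more with an Etv5 region (38.9%, interval 17.3 to 64.3%), compared with 37.8% of all nuclear Etv4 regions. Of the 8 Etv5 regions, 6 overlapped an Etv4 region (75%, interval 34.9 to 96.8%), compared with 63.1%. The 6 pairs inside the windows comprised 2 at Trp63, 2 at Sox9, 1 at Ghdc beside Stat5b and 1 at Micall1 beside Sox10. The common stretch ranged from 200 to 720 bp. The 4 pairs at Trp63 and Sox9 all lay beyond 2 kb of any transcript start, and the other 2 lay at starts of neighbouring genes. At Gata3, which also had regions of both lists, none overlapped. The Etv4 regions were of ordinary length, with a median of 604 bp compared with 589 bp for the list, and the Etv5 regions had a median of 395 bp compared with 532 bp.

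The place of the regions in the numbered order of their own list was then examined. Among the Etv4 regions, 10 of 18 fell in the first 50% of their list (55.6%, interval 30.8 to 78.5%), with the lowest numbers at Gata3, Sox9, Sox10 and Trp63. Among the Etv5 regions, 2 of 8 did (25.0%, interval 3.19 to 65.1%), those upstream of Sox9 and at Ghdc, and both were within 2 percentage points of the middle. Both intervals include 50%. The median place was at 49.0% of the Etv4 list (range 9.34 to 95.03%) and at 73.8% of the Etv5 list (range 48.7 to 81.9%). In 5 of the 6 overlapping pairs the Etv4 region stood earlier in its list than the Etv5 region in its own, and the pair at Ghdc was the exception, at 95.03% for Etv4 and 49.2% for Etv5. The orders of the 2 lists need not be on the same scale, so these places were not tested against each other.

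**Figure D4:**
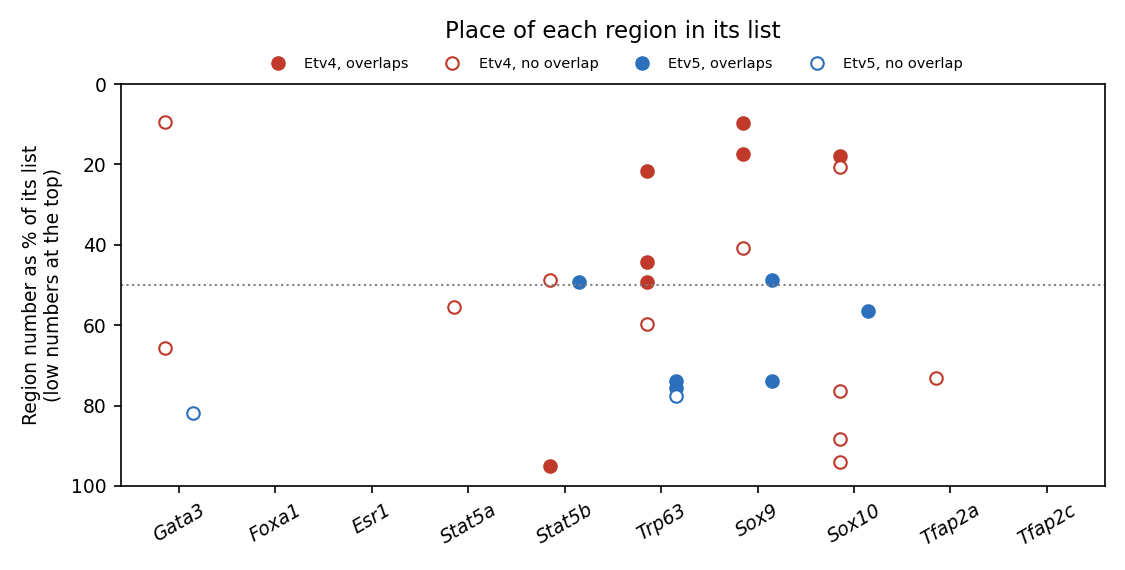
Place of each region in its own list, as its number in percent of the list length, with low numbers at the top and the dotted line at 50%. Red points are Etv4 and blue points Etv5 regions, filled where the region overlaps the other list. Etv4 points range from 9.34 to 95.03% and Etv5 points from 48.7 to 81.9%.

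The ETS pattern, CAGGAAGT or CCGGAAGT in the central 500 bp of a region, was searched on both strands. This window reaches beyond the region where the region is shorter, which was so for 4 of the 18 Etv4 and 6 of the 8 Etv5 regions. The pattern was present in 1 of the 18 Etv4 regions (5.56%, interval 0.141 to 27.3%), that at Polr2f, compared with 10.2% of the list. It was found in 0 of the 8 Etv5 regions, which allows a share of up to 37.5%, compared with 7.93%. The same pattern written backwards, a control of equal composition, occurred in 1 region of each list (5.56 and 12.5%, compared with 3.60 and 3.81% of the lists), and the Etv5 site lay outside the region proper. The looser core was present in 12 of the 18 Etv4 regions (66.7%, compared with 81.5%) and in 8 of the 8 Etv5 regions (compared with 79.1%). AP-1 sites were found in 6 of the 18 Etv4 regions (33.3%, interval 13.3 to 59.0%, compared with 37.4%) and in 2 of the 8 Etv5 regions (25.0%, interval 3.19 to 65.1%, compared with 35.8%). Within the region proper, 6 Etv4 regions and 1 Etv5 region, that upstream of Sox9, held an AP-1 site, since the site beside the Etv5 region downstream of Trp63 lies outside it. All 6 AP-1-bearing Etv4 regions belonged to Gata3, Trp63, Sox9 or Sox10, which had 2, 4, 3 and 5 of the 18 Etv4 regions. RUNX sites occurred in 2 Etv4 regions (11.1%, compared with 24.7%) and in 1 Etv5 region (12.5%, compared with 23.9%). Over the whole length of the regions, RUNX sites occurred in 4 Etv4 regions (at Trp63, Sox9, Micall1 and 1700088E04Rik) and in 2 Etv5 regions (at Ghdc and Micall1). For every pattern counted in the central 500 bp, the share of the list lay inside the interval. For Etv4 and Etv5 the intervals of the looser core were 41.0 to 86.7% and 63.1 to 100%. Those of RUNX sites were 1.38 to 34.7% and 0.316 to 52.7%.

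Most sites of either pattern at these genes lay outside the regions. The 10 windows contained 139 ETS patterns, and 1 of them was inside an Etv4 region (0.719%) and 0 inside an Etv5 region, compared with 0.869 and 0.377% of the 199648 patterns in the genome. Esr1, with no region at all, had 35 of them, and Foxa1 had 8. Of 306 AP-1 sites, 6 were inside an Etv4 region (1.96%) and 1 inside an Etv5 region (0.327%), compared with 1.62 and 0.910% of sites in the genome. Genes with and without regions thus both held such sites.

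Family relatives and other regulators of mammary lineages were counted in the same way. Of 19 relatives (other Gata, Foxa, Esr, Sox, p53, AP-2 and Stat genes), 6 had an Etv4 region and 8 an Etv5 region, 4 had both and 9 had neither. Of all protein-coding genes, 53.4% had an Etv4 region, 42.7% an Etv5 region, 36.4% both and 40.4% neither. Stat6 had the most, with 5 Etv4 and 4 Etv5 regions, followed by Stat3, the neighbour of the Stat5 genes, with 4 of each, and Stat2, with 4 and 0. Those with 0 in both lists included Gata1, Gata2, Gata6, Foxa2, Trp73, Tfap2b, Tfap2d and Stat4. Of the other relatives with a region, Gata5 had 1 Etv4 and 2 Etv5 regions and Trp53 had 2 and 0. Sox8 had 0 and 2, Tfap2e 1 and 1, and Esr2, Foxa3 and Gata4 each 0 and 1. Of 20 other lineage regulators, 9 had an Etv4 region and 5 an Etv5 region, 5 had both and 11 had neither. The shares of all protein-coding genes to compare are again 53.4, 42.7, 36.4 and 40.4%. Runx1, a RUNX factor of the luminal lineage, had 19 Etv4 and 6 Etv5 regions, Nfib 7 and 5, Cbfb, the binding partner of RUNX factors, 5 and 2, and the GATA-type repressor Trps1 3 and 3. Counts in these further lists were not divided by window length, on which they depend. Those with 0 included the progesterone receptor gene Pgr, Bcl11a, Bcl11b, Foxc1, Hey1, Irx4, Lef1, Lmo4 and Tbx3.

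**Figure D5:**
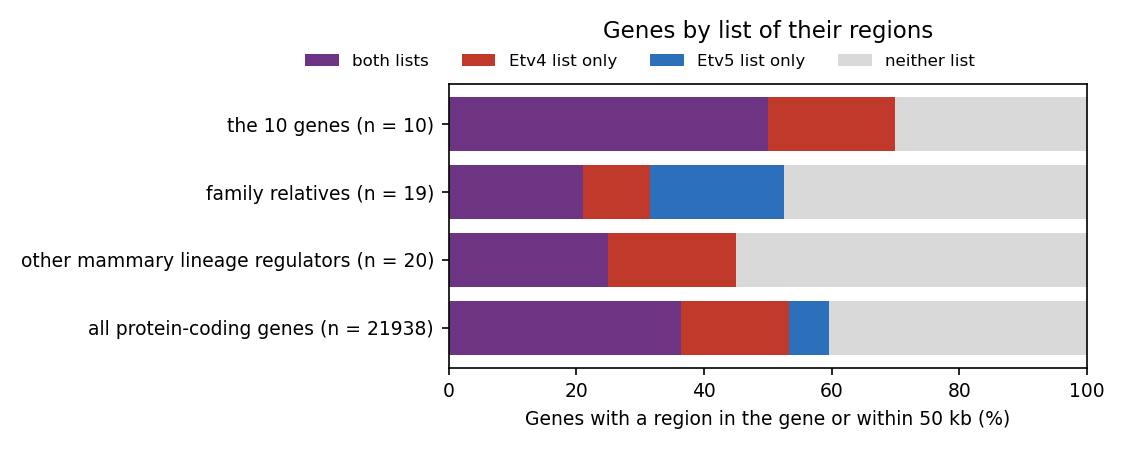
Percent of genes with a region of both lists, of the Etv4 list only, of the Etv5 list only or of neither list, in the gene body or within 50 kb. Rows are the 10 genes, 19 family relatives, 20 other lineage regulators and all 21938 protein-coding genes. The neither share is 40.4% over all genes, 3 of the 10 genes, 9 of the relatives and 11 of the other regulators.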

How the data were processed

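ChIP-seq was performed by the authors on EpRas cells with 1 library per antibody, amplified by 15 cycles of PCR. Regions were called per library with the one-sample mode of CisGenome (window of 300 bp, p threshold of 0.1), which uses no input library, so local copy number and mappability are not corrected. The mapping of reads, cut to 36 bases, to mm10 with bowtie2 is described for the accessibility data, and the ChIP-seq methods point there. Each deposited file lists start and end positions, a region number and a score. The deposited score is 1000 throughout, and there are no counts per region, so depth is unknown.

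Genes and starts came from GENCODE vM21, and sequence from RefSeq GRCm38.p6, the assembly of mm10. Distances run from region midpoint to gene start, or from region edge to gene body, and coordinates count from 1. Near a start means a midpoint within 2 kb of any transcript start, and other regions were exonic, intronic or intergenic in that order. Patterns were counted on either strand of the central 500 bp. All 10 genes are described, and further lists by counts with examples. These are all relatives with a region, the 4 other regulators with the most regions, and some genes with 0. The members and lists were chosen with earlier results of these data known. Intervals are exact (Clopper-Pearson) at 95%, and a count of 0 allows 3 counts. Functions were tested on simulated data. Alternatives changed the window, the list, the overlap rule, the distance and the pattern. Python 3.11.15, numpy 2.4.6, pandas 2.3.3, scipy 1.17.1, pysam 0.24.0, numba 0.67.0 and matplotlib 3.10.9 were used. Accessibility and RNA data of the study were not used here.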

Additional observations from a re-analysis of the deposited data

How the results depend on the processing

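Of the values recomputed under other settings, 44 stayed within their interval or within 1.5 times the count and 20 moved. Under settings chosen after seeing the data, 4 stayed and 8 moved. Counts of regions are given as Etv4 and Etv5. Within 10 kb of the genes, 8 and 4 regions were left at the 10 genes, and 7291 and 5046 protein-coding genes had a region. Within 100 kb there were 15 Etv5 regions. Counting 50 kb from the gene start only, 4 and 2 of the 10 genes had a region, with 10 and 3 regions in all, compared with 10127 and 7918 of the 21938 protein-coding genes, since long genes and their far ends then drop out. The longer 50% of each list and the first 50% by number each left 10 and 2 regions and 2 genes with an Etv5 region, with 5579 and 5715 protein-coding genes having one. Taking only regions whose nearest protein-coding start is that of the gene (chosen after seeing the data) left 9 and 3 regions and 2 genes with an Etv5 region. For that setting no share over all protein-coding genes is given, so the count of genes has no background. With starts of the 10 genes alone, 4 and 1 regions were near a start. The backwards pattern gave 1 Etv5 region where the ETS pattern gave 0. Searching whole regions (chosen after seeing the data) gave RUNX sites in 4 and 2 regions, AP-1 sites in 1 Etv5 region and the backwards pattern in 2 and 0. Narrower windows and shorter lists lower counts by construction. The shares overlapping the other list kept within their intervals, which are wide with 18 and 8 regions, but fell from 38.9 and 75% to 22.2 and 37.5% when 50% of both regions had to overlap, and to 20% for Etv4 in the longer 50% of each list. With equal numbers of regions the Etv4 share was 54.5%. No paired analysis was possible because there was 1 library per antibody.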

Other observations

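At 500 kb on either side, Foxa1 still had 0 regions of both lists, whereas Esr1 had 6 Etv4 and 4 Etv5 regions and Tfap2c also 6 and 4. Tfap2a, with 1 Etv4 region at 50 kb, had 7 and 4. Within 100 kb, Stat5a had 5 regions of each list and Stat5b 5 and 2, where the narrower window had 0 Etv5 regions at Stat5a. At Trp63, the counts within 100 kb were 4 and 4, with the additional Etv5 region next to the border of the 50 kb window.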
